A study of Mus musculus with 7 samples.

Results

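Sperm RNA of a KDM1A transgenic mouse line was compared with sperm RNA of C57BL/6 males from outside the line, gene by gene, for the RNAs that the arrays read well. A probe set, the group of array probes that reads 1 transcript, was counted as well measured where it had exactly 1 gene symbol and a log2 intensity of 7 or more on the C57BL/6 array or as the mean of the 6 arrays of the line. There were 1182 such probe sets for 1132 gene symbols, of 23493 with 1 symbol and 33604 on the array. Of these, 745 reached 7 on both sides, 299 on the C57BL/6 array alone and 138 in the line alone.

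The C57BL/6 group was 1 array of RNA pooled from 5 males. The line had 3 arrays of transgene carriers (TG3) and 3 of littermates that had not inherited the transgene (nonTG3), each a pool of 4 males of generation 3. The line began with a KDM1A transgene injected into C57BL/6 zygotes, came from female founders and was kept by breeding heterozygous males to C57BL/6 females, so nonTG3 males shared the ancestry of TG3 males but not the transgene. The sources used here do not name the promoter that drives the transgene. It is not stated if any male contributed to several pools, so all p-values below measure the spread between these pools, and the lone C57BL/6 array is assumed to vary like the others. Whatever set that array apart from the line's arrays other than ancestry, such as its handling, cannot be told apart from the difference between the groups.

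Mature sperm make almost no new RNA. What they carry was mostly written earlier, in spermatocytes and round spermatids, where many messages are stored in protein-bound form until histones are exchanged for transition proteins and then for protamines and the nucleus is compacted. KDM1A is a demethylase of histone lysines. In RNA from pooled sperm, a smaller number of cells of a type and less RNA per cell cannot be told apart.

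Array medians were 3.52 to 3.61. All 7 defining RNAs of sperm and late spermatids (Prm1, Tnp1, Tnp2, Smcp, Odf1, Akap4 and Gapdhs) read above 7 on both sides, at 8.05 to 12.40 on the C57BL/6 array and 7.08 to 11.80 as line means. The mean of the 10 mitochondrially encoded RNAs was 11.24 on the C57BL/6 array. In the line, TG3 replicates 1 to 3 had 8.80, 11.44 and 11.51, and the nonTG3 replicates had 11.55, 9.98 and 8.91. TG3 replicate 1 and nonTG3 replicate 3 therefore stood apart in mitochondrial RNA. Without both of them the limma fit had 2 residual degrees of freedom and called 0 well measured probe sets. The smallest adjusted p was then 0.0520, and 303 had an unadjusted p under 0.05. The median difference of the 169 probe sets called lower over all arrays was -2.10 with these arrays and -2.09 without them. What part the mitochondrial difference has in other results was not tested. Kdm1a, the mouse gene with the name of the transgene, read 5.64 on C57BL/6, 5.06, 5.27 and 5.27 on TG3 and 5.07, 5.27 and 5.27 on nonTG3. Whether its probe set also reads RNA of the transgene was not tested. Carriers and littermates overlapped fully, and Kdm1a lay outside the well measured set.

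The promoters of 5 spermatid genes are shown because their messages were lost or kept within shared pathways. RNAs of Tnp1, Prm1 and Ldhc were lower in the line, and those of Tnp2 and Gapdhs lay within 0.5 log2 units of the C57BL/6 reading. Each stretch is the 250 bases before the RefSeq start on GRCm38.p6, written in the direction of transcription, with matches to the searched motifs in capitals. Odf1 is named only.
Tnp1 (chr1:73015900-73016149, minus strand): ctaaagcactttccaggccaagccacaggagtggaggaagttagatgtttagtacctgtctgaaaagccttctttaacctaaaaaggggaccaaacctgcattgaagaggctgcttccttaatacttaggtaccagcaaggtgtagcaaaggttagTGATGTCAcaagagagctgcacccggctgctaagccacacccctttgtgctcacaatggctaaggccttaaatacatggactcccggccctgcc
Prm1 (chr16:10796824-10797073, minus strand): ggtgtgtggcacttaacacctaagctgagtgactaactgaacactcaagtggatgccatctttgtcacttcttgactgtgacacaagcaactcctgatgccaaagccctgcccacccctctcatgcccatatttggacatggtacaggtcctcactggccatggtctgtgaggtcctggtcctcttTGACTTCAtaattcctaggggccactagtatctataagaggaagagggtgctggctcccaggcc
Ldhc, first of its starts (chr7:46861013-46861262, plus strand): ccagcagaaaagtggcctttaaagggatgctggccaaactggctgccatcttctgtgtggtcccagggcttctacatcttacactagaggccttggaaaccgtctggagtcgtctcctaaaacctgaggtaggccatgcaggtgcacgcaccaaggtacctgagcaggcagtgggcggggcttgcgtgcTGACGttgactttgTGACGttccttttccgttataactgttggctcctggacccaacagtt
Tnp2 (chr16:10788656-10788905, minus strand): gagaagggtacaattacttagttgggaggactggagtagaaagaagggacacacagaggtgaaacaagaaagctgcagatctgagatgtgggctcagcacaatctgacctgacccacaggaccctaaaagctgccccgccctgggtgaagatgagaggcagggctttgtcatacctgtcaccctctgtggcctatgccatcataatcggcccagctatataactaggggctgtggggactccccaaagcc
Gapdhs, first of its starts (chr7:30743682-30743931, minus strand): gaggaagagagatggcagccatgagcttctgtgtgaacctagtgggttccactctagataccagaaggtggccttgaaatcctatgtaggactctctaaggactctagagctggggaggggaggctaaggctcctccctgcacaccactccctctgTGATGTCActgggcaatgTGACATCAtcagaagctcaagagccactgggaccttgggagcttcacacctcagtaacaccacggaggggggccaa

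The motifs, searched on both strands, were the cAMP response element TGACGTCA, bound by the CREM and CREB factors, its shorter element TGACG, the TATA box TATAAA, and the looser form TGANNTCA, which also holds the full element. The looser form was chosen after these promoters were seen. In capitals, Tnp1 and Prm1 hold 1 looser element each, beginning 94 and 64 bases before the start. Gapdhs holds a pair of them, at 94 and 76 bases. Ldhc holds a pair of the shorter elements and no looser element, and Tnp2 holds none of these letters in this window. Among genes called lower by at least 1 log2 unit, 134 of 163 had a promoter entry. The looser element was in 33 of these 134 genes (24.6%), against 13.5% of all 27025 genes of the table. The full element was in 1.49% against 1.77%, and the shorter element in 22.4% against 19.8%. Counted over promoters, the TATA box was in 7.19% of 167 against 12.4% of all 32851. Only 482 of 615 kept genes had an entry, under the 80% set for such a check, so the check is void for them. In those 482 the looser element was in 17.8%, the full one in 4.98% and the shorter one in 38.8%. Of the 22154 genes of the array 16971 had an entry, also under 80%. In these the looser element was in 12.3%, the full one in 2.29% and the shorter one in 23.2%. Against them the shorter element was not more frequent among the lower genes. A match in these letters is a description and not a binding site.

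The comparison of the line with C57BL/6 asks which well read sperm RNAs differed between the line and an outside pool. Each difference is the mean of the TG3 and nonTG3 means minus the C57BL/6 value, in log2 units, so -1 is 2 times lower. Readings of different probe sets are not set against each other as amounts of RNA. Limma called 169 well measured probe sets lower (adjusted p under 0.05), where 2.85% of all 23493 tested were called lower, and 1 higher, where 0.17% were. Of the 169, 17 read 7 or more on both sides and 152 on the C57BL/6 array alone. The second number carries no information of its own, because a probe set that passes 7 on the C57BL/6 array alone has to read lower in the line. The 17 were 2.28% of the 745 read on both sides, near the share over all probe sets. Leaving out 1 array of the line at a time left 105 to 129 calls, the fewest without nonTG3 replicate 2 and 108 without nonTG3 replicate 1. In 359 of the 1182 all 6 arrays of the line lay under the C57BL/6 array, where 14.3% of all tested did. Of these, 269 reached 7 on the C57BL/6 array alone, which favours this order, and 90 were among the 745 read on both sides (12.1%).

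A total of 237 well measured probe sets were lower in the line by 1 log2 unit or more, where 3.86% of all tested were, and 2 were higher by that much, where 0.2% were. Of the 237, 33 read 7 or more on both sides. The difference reached 2 log2 units in 107 and 3 in 21, and all of the 21 read 7 or more on the C57BL/6 array alone. Retained RNAs were more frequent than lost ones. The line mean lay within 0.5 log2 units of C57BL/6 in 742 well measured probe sets, where 86.6% of all tested did, and is called kept below. Among the 1044 that read 7 or more on the C57BL/6 array, 650 were kept. In 267 of the 1182 the 95% limma interval of the difference lay within 1 log2 unit of zero. A probe set counted as kept by its mean alone can have a wider interval.

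**Figure D1:**
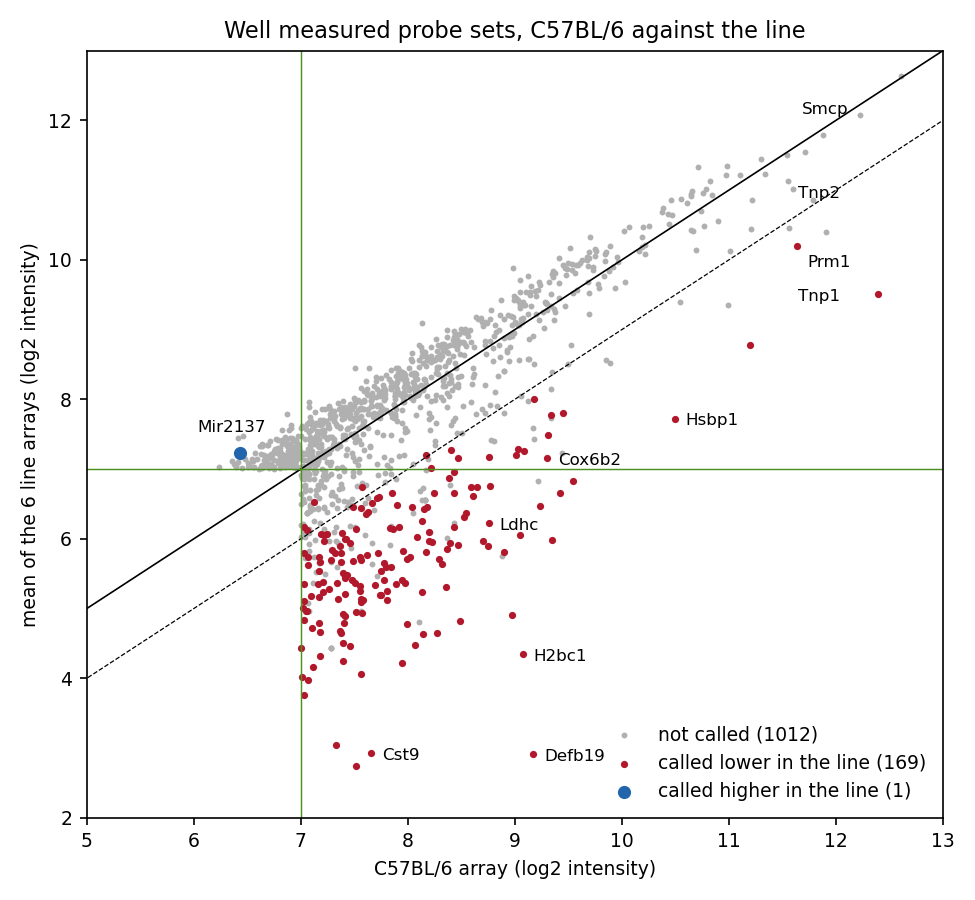
Log2 intensity on the C57BL/6 array (x axis) against the mean of the 6 line arrays (y axis) for the 1182 well measured probe sets. The solid line marks equal values, the dashed line a decrease of 1 log2 unit and the green lines the level of 7. Of the 169 called lower in the line (red), 164 lie on or below the dashed line, Mir2137 (blue) is the 1 called higher, and most grey points follow the solid line.

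The decreases were also counted on each array of the line. Over the 1044 probe sets at 7 or more on the C57BL/6 array, 185 were lower by 1 log2 unit or more on all 6 arrays of the line and 655 on none. All 6 differences share the C57BL/6 array, on which these probe sets were chosen, so their agreement is no test. Another 85 were lower on 1 array only. By array, 263, 216 and 278 were lower by that much on the TG3 arrays and 236, 301 and 277 on the nonTG3 arrays. The median difference over the 1044 lay between -0.37 (TG3 replicate 3) and 0.05 (TG3 replicate 2).

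The share that was lower was also counted by the C57BL/6 reading. It was 24.4% of 589 probe sets that read 7 to 8 (exact 95% binomial interval 21.0% to 28.1%, for counting error only), 22.4% of 268 at 8 to 9 and 19.1% of 131 at 9 to 10. Of 37 that read 10 to 11, 3 were lower by 1 or more and 32 lay within 0.5. Of 16 that read 11 to 12, 4 were lower. Of 3 at 12 or more the lower one was Tnp1, and both others read Rn7sk, a small nuclear RNA that restrains transcription elongation. Because the level of 7 sits on the C57BL/6 side here, these shares describe the probe sets and are no test.

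**Figure D2:**
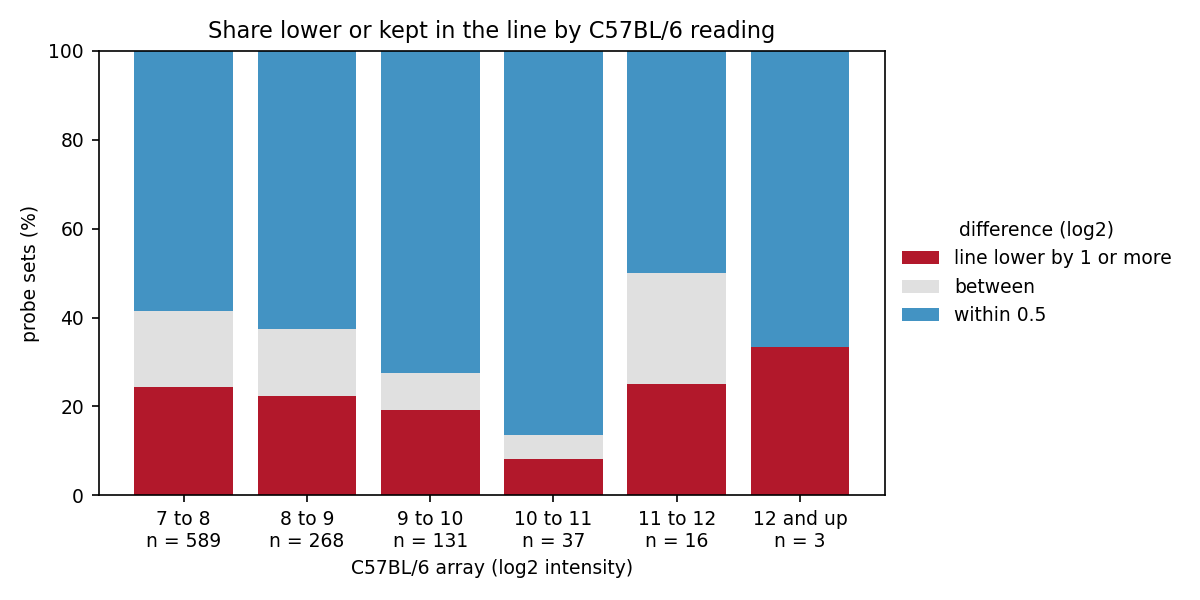
Percent of the 1044 probe sets with 7 or more on the C57BL/6 array (y axis), in bins of 1 log2 unit of that reading (x axis, n below each bar). Red is lower in the line by 1 log2 unit or more and blue within 0.5 log2 units. Grey, labelled between, is all the rest and includes probe sets higher in the line by 0.5 or more. These were 6.79% of the lowest bin. The red share is 24.4% in the lowest bin and 8.11% at 10 to 11, and the 2 highest bins hold 16 and 3 probe sets.

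Messages for proteins that repack sperm DNA were divided. Of 22 measured genes of sperm chromatin, 11 fell and 0 rose, and 12 were well measured. The median difference of the 22 was -1.17, against 0.037 over all probe sets tested. Of all 23493 tested, 2.85% were called lower and 0.17% higher. This list and those below were chosen with earlier results of these data known. Tnp1, a transition protein that takes the place of histones, read 12.40 on the C57BL/6 array. It read 9.37, 9.23 and 9.46 on the TG3 arrays and 9.58, 9.58 and 9.85 on the nonTG3 arrays. All 6 arrays of the line lay below the C57BL/6 array. The fall was 2.88 log2 units, or 7.38-fold (SE 0.15, limma adjusted p = 0.00218). Its partner Tnp2 read 11.55 on the C57BL/6 array and 10.86 to 11.41 in the line, with a median of 11.17. These arrays were also all below C57BL/6, but the difference of -0.42 did not pass (95% interval -0.82 to -0.01, limma adjusted p = 0.387).

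Prm1, a protamine, the small arginine-rich protein of the finished sperm nucleus, read 11.64 on the C57BL/6 array and 10.08, 10.18 and 10.35 as the lowest, median and highest of the line. It fell 2.72-fold (limma adjusted p = 0.00535). Prm3, a cytoplasmic protamine-like protein of the same gene cluster, read 9.45 against 7.62 to 7.93 and fell 3.12-fold (limma adjusted p = 0.00564). Among testis histones and histone-like RNAs, H2bc1 read 9.08 against 3.63 to 5.27, H2al2a read 9.34 against 7.37 to 8.24, and the linker histone H1f7 read 8.21 against 6.86 to 7.30. All of them fell (limma adjusted p up to 0.0341), with no overlap between the C57BL/6 array and the line. H2bc1 reached 7 on the C57BL/6 array alone, which favours a lower reading in the line. H2ac1 had a difference of -3.31 that did not pass (limma adjusted p = 0.0581). Hmgb4, a testis high-mobility-group protein, read 9.09 and averaged 7.26 in the line, and was also called lower. Chd5, a remodeller of spermatid chromatin, and Tssk6, a kinase needed for sperm head shaping, were kept at 9.75 and 10.06 and at 7.92 and 8.32.

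Energy metabolism was split in the same way. Of 29 measured genes of sperm energy supply, 12 fell, where 2.85% of all tested did, and 0 rose (median -0.98). Ldhc, the sperm lactate dehydrogenase, read 8.76 on the C57BL/6 array and 6.40, 6.30 and 5.86 on the TG3 arrays and 6.30, 6.22 and 6.30 on the nonTG3 arrays. All 6 lay below C57BL/6, and the fall was 5.76-fold (SE 0.21, limma adjusted p = 0.00532). Ldhc reached 7 on the C57BL/6 array alone, which favours a lower reading in the line. Enzymes of earlier steps of the same pathway differed among themselves. Aldoart2, a germ cell aldolase, and Pfkp, a phosphofructokinase, read below 7 on both sides and fell, by 1.45 and 1.20 log2 units (limma adjusted p = 0.0377 and 0.0175). Pgam2, a phosphoglycerate mutase, had a difference of -1.41 that did not pass. The kept ones with the highest C57BL/6 readings were Gapdhs, Hk1 and Pgk2. Gapdhs, the sperm glyceraldehyde phosphate dehydrogenase, read 9.94 against 9.34, 9.55 and 10.02 (lowest, median, highest; 95% interval of the difference -0.86 to 0.19). Pgk2, the germ cell phosphoglycerate kinase, read 7.98 against 7.33, 7.55 and 7.96 (-1.01 to 0.23). Hk1, hexokinase, read 9.34 and averaged 9.33 ± 0.16 (SD, n = 6). The C57BL/6 reading lay inside the range of the line for Gapdhs and Hk1 and just above it for Pgk2.

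Nuclear messages for mitochondrial proteins of the testis were among the lower ones. Cox6b2, a testis subunit of cytochrome c oxidase, read 9.30 against 7.08 to 7.29 and fell 4.42-fold (limma adjusted p = 0.00218). Another, Cox7b2, read 7.33 against 2.53 to 3.45. Vdac3, an outer membrane channel, read 9.24 against 6.02 to 6.65 and fell 6.84-fold, and Gk2, a testis glycerol kinase, read 7.39 against 3.70 to 4.69. Of these genes, Cox6b2 reached 7 on both sides, and Cox7b2, Vdac3 and Gk2 did so on the C57BL/6 array alone. No measure of background was used, so for Cox7b2 and other genes whose line mean is under 3.52, the lowest array median, only readings and no fold are given. Of the 10 RNAs written in the mitochondrion itself 0 were called, with a median difference of -0.90. The differences ran from -1.51 (ND3) to -0.16 (COX1), 4 of them were -1 or lower, and the arrays of the line were far apart, as described below.

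Tail messages were both lost and kept. Of 63 measured genes of flagellum structure 11 fell, where 2.85% of all tested did, and 0 rose (median -0.56). Of the 24 well measured 5 fell while 12 lay within 0.5 log2 units. Odf1, the main outer dense fibre protein, read 11.55 on the C57BL/6 array and 11.12, 11.52 and 11.86 in the line, on the brighter of its probe sets. Smcp, a cysteine-rich protein associated with sperm mitochondria, read 11.88 against 11.56, 11.82 and 12.11. Oaz3, the testis ornithine decarboxylase antizyme, read 10.74 against 10.32, 10.73 and 11.03. The C57BL/6 reading lay within the line's range in all of them. The 95% intervals of these differences, -0.82 to 0.74, -0.62 to 0.45 and -0.65 to 0.58, leave room for changes below 1 log2 unit. Odf2, Spata18 and Tppp2 were also within 0.5.

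The well measured tail messages that fell were Spata19, Dynlrb2, Meig1, Rsph1 and Ropn1l, all of which reached 7 on the C57BL/6 array alone. Tekt1, Tekt4, Rsph9, Cfap45 and Dnajb13 fell from readings below 7. So did Tbpl1, which is counted in this list but is a TATA-box binding protein-like factor and no structural tail gene. Spata19, a protein of the sperm mitochondrial sheath, read 8.97 against 4.48, 4.95 and 5.28, a 16.7-fold fall. Dynlrb2, a dynein light chain, read 7.94 against 3.55 to 4.43. Meig1, needed to build the tail of spermatids, read 8.36 against 5.14 to 5.38, with only 3 different readings among the 6 arrays. Ropn1l, of the fibrous sheath, read 8.43 against 6.29 to 6.98. The fibrous sheath anchors Akap4 and Akap3 were lower by 0.97 and 1.12 but did not pass (limma adjusted p = 0.352 and 0.405), and Spa17, a sperm surface and sheath protein, was lower by 1.65 without passing (limma adjusted p = 0.189).

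**Figure D3:**
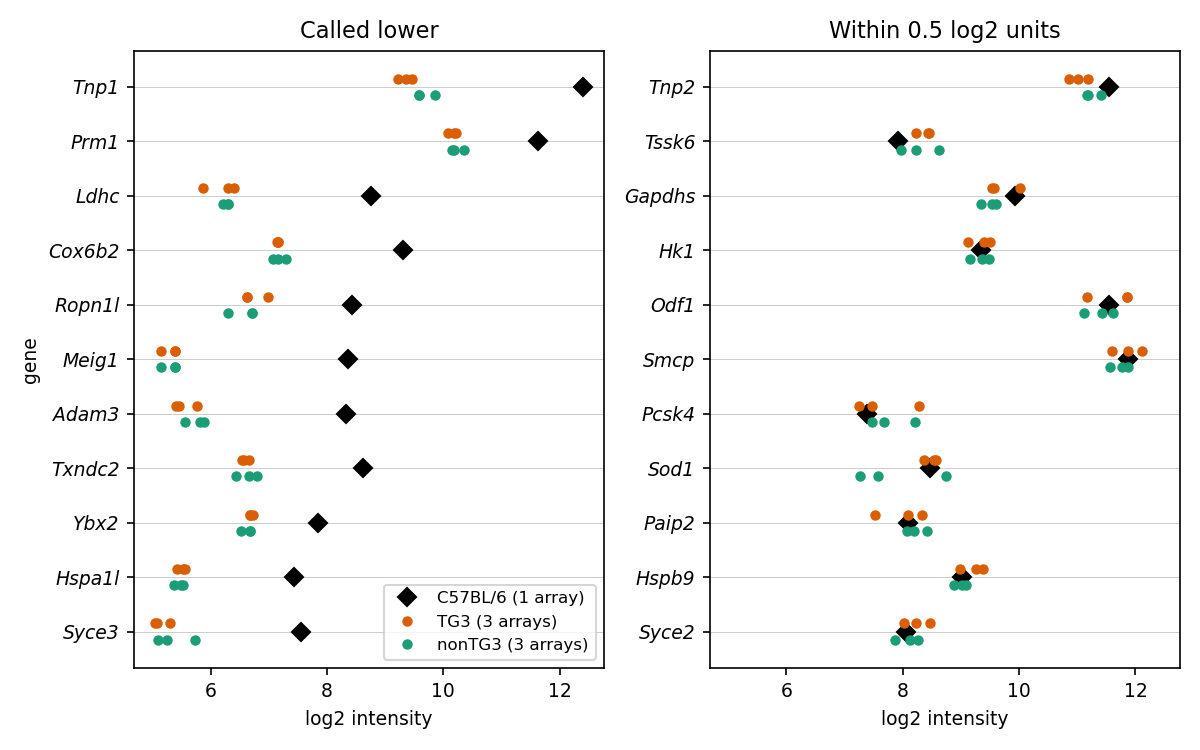
Log2 intensity (x axis) of 11 genes called lower (left) and 11 within 0.5 log2 units (right), with the C57BL/6 array as a diamond, the 3 TG3 arrays in orange and the 3 nonTG3 arrays in green. On the left the C57BL/6 reading lies above all 6 arrays of the line, with Tnp1 at 12.40 against 9.23 to 9.85. On the right it lies inside or near their range.

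Many acrosome and egg-binding messages fell. Of 53 measured, 23 fell, where 2.85% of all tested did, and 0 rose (median -1.20). Of the 53, 15 were well measured. Adam3 and Adam5, surface proteins of a family that acts in sperm migration and egg binding, read 8.32 and 7.87 on the C57BL/6 array while their line means were 5.64 ± 0.20 and 6.14 ± 0.10 (SD, n = 6). Spink2, an acrosomal protease inhibitor, read 7.81 against 5.01 to 5.15 and fell 6.44-fold (limma adjusted p = 0.00176). Clgn, a chaperone that folds such surface proteins in the spermatid, read 7.75 against 5.23 to 5.71 and fell 4.62-fold. Spink2 and Clgn each took only 3 different readings among the 6 arrays of the line. Spaca1 and Acrv1 of the acrosome, the zona pellucida binding protein Zpbp2, Izumo2 and Lypd4 fell as well. Their C57BL/6 readings were 7.07 to 7.58 and their line means 3.98 to 5.37. Every gene named in this paragraph, and 12 of the 15 well measured, reached 7 on the C57BL/6 array alone. That choice favours a lower reading in the line.

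Well measured members of this list that lay within 0.5 were Actl7a, an actin-like protein of the acrosome, and Pcsk4, an acrosomal convertase. Actl7a read 7.40 against 6.79 to 7.15, and Pcsk4 read 7.38 against 7.25 to 8.28. Crisp2 and Spaca9 were lower by 0.92 and 0.83 and did not pass. Izumo1, which meets the egg receptor, lay outside the well measured set at 5.74 and averaged 4.34 in the line, a difference that did not pass (limma adjusted p = 0.194).

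Storage and folding of messages and proteins gave further pairs. Of 37 measured genes of stored RNA and translation control, 8 fell, where 2.85% of all tested did, and 0 rose (median -0.35). Ybx2 and Ybx3, the Y-box proteins that bind stored germ cell messages, read 7.85 and 8.59 while their line means were 6.66 ± 0.07 and 6.74 ± 0.28 (SD, n = 6). Ybx2 took only 3 different readings among these arrays. Ddx25, a helicase of the spermatid chromatoid body, read 7.70 against 4.85 to 5.64. All of these fell, and all reached 7 on the C57BL/6 array alone, which favours a lower reading in the line. Paip2, a repressor of poly(A)-binding protein, and Strbp, a spermatid RNA-binding protein, were kept at 8.09 and 8.10 and at 7.24 and 7.26. Mael, of piRNA processing, had a difference of -3.12 that did not pass (limma adjusted p = 0.0519).

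Of 27 measured heat shock and chaperone genes, 9 fell, where 2.85% of all tested did, and 0 rose (median -0.73). Hspa1l, the testis HSP70, read 7.43 against 5.36 to 5.55 and fell 3.86-fold (limma adjusted p = 0.00244). Tcp1, a subunit of the CCT chaperonin, read 7.96 against 5.57 to 6.16, and Dnajc5b, a cysteine-string protein of the testis, read 8.36 against 5.23 to 6.22. Hspa1l, Tcp1 and Dnajc5b, and Txndc2 below, reached 7 on the C57BL/6 array alone, which favours a lower reading in the line. Hspb9, a small heat shock protein of the testis, was kept at 9.01 against 8.87 to 9.38. Hsbp1, which binds the heat shock factor and belongs to no list, read 10.50 against 7.47, 7.82 and 7.86 and was also called lower. Of 21 thiol and peroxide defence genes 6 fell and 0 rose (median -0.30). Txndc2, a sperm thioredoxin, read 8.61 against 6.43 to 6.80, while Sod1 and Gpx4, which remove superoxide and lipid peroxides, were kept at 8.47 and 8.18 and at 7.12 and 6.86.

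In ubiquitin and protein turnover 8 of 31 fell, where 2.85% of all tested did, and 0 rose (median -0.40). Asb17, a testis ubiquitin ligase adaptor, read 7.81 against 4.84 to 5.50, and the ligase Marchf10 read 7.28 against 5.37 to 5.82. Asb17 and Marchf10, and Catsperz below, reached 7 on the C57BL/6 array alone, which favours a lower reading in the line. Klhl10, the adaptor of a testis ligase, was kept at 7.74 and 7.73, as were Rnf138 and Usp2. Cul3, the scaffold of Klhl10 ligases, read 8.40 against 7.11 to 7.48 and was called lower. Of 24 genes listed as testis kinases and phosphatases 6 fell (median -0.42), and of 30 ion channel and motility signalling genes 6 fell (median -0.47). In both lists 0 rose. The 1 well measured gene called in the first list was Pdcl2, a phosducin-like protein and neither a kinase nor a phosphatase. Catsperz, a subunit of the sperm calcium channel, read 8.65 against 6.45 to 7.06. Kcnu1, the sperm potassium channel, and Atp1a4, the sperm sodium pump, were kept at 7.90 and 8.25 and at 7.95 and 7.84.

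**Figure D4:**
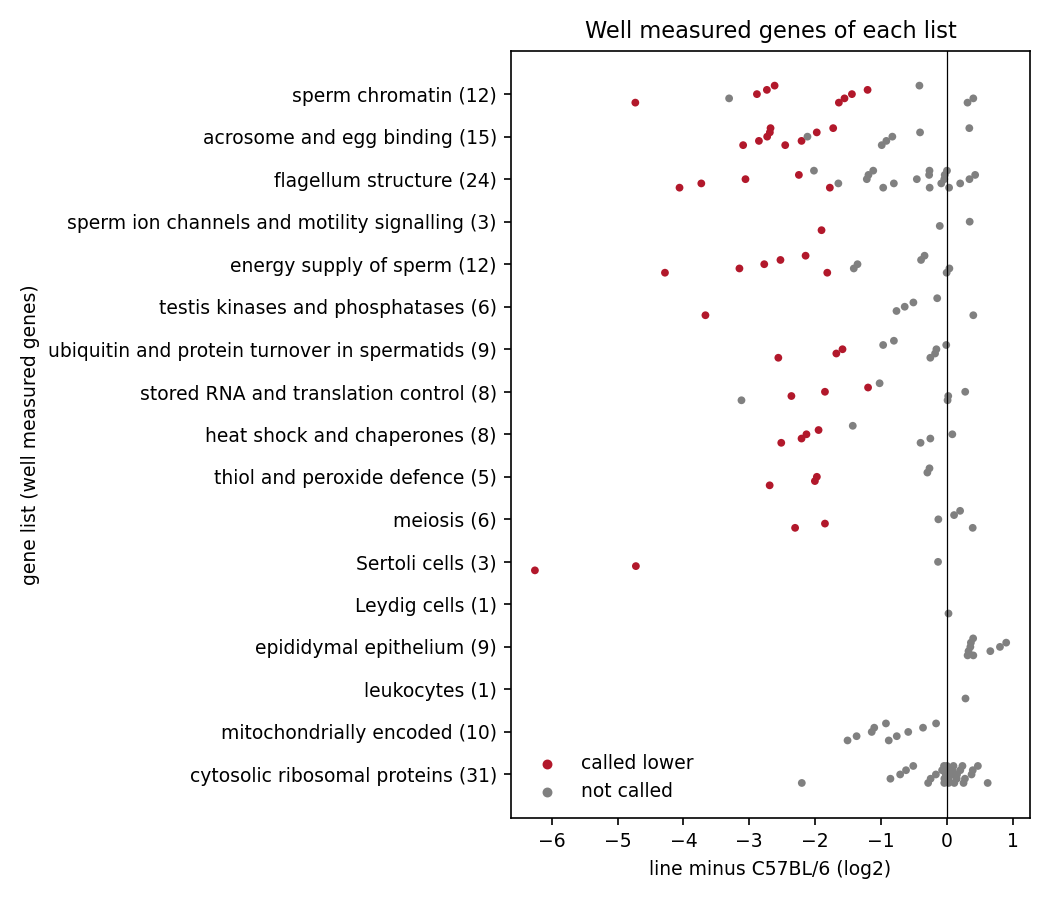
Difference between the line and C57BL/6 (x axis, log2) for the well measured genes of each list (y axis, number in parentheses). Red points were called lower and grey points were not called. Flagellum genes run from -4.06 (Spata19) to above 0, and no point among the epididymal and ribosomal protein lists is red.

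Some calls depended on single arrays. Of the 48 genes named by rule that were called, 17, Mir2137 below among them, lost the call in at least 1 of the 6 fits that each left out 1 array of the line. Catsperz, Ddx25, Dnajc5b, H2al2a, Ldhal6b and Ybx3 lost it in 5 of 6, with adjusted p up to 0.111. Lrrc34, Pdcl2, Ropn1l and Spata4 lost it in 4, H2bc1 and Marchf10 in 3, Glipr1l1, Tmco2 and Txndc8 in 2, and Gk2 in 1. Their adjusted p reached 0.0550 to 0.119. Tnp1, Prm1, Ldhc, Cox6b2, Spata19, Adam3 and Spink2 kept it in each of these fits.

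Other large decreases by the naming rule spanned several functions. Phf7, a histone-binding protein of the male germ line, read 9.35 on the C57BL/6 array and 5.63, 6.02 and 6.33 in the line, a 10.3-fold fall. Cdkn3, a cell cycle phosphatase, read 7.57 against 3.74 to 4.29. Pmis2, a sperm surface protein needed for migration through the oviduct, read 8.15 against 4.35 to 4.73. Marchf11, Prr27, Glipr1l1, Tmco2, Spata4, Lrrc34, Pdcl2 and Med9os fell by 2.94 to 3.67 log2 units. These genes and Phf7, Cdkn3 and Pmis2 all reached 7 on the C57BL/6 array alone. Fabp9, the testis fatty acid binding protein, read 11.20 against 8.36 to 9.08.

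Some markers of cells other than sperm also differed, beside the decreases above, and others did not. None of 5 meiotic markers reached 7 on either side. They read 4.43 to 6.26 on C57BL/6 and averaged 2.55 to 3.87 in the line, and 3 fell (Sycp1, Sycp2 and Smc1b). Of 7 Sertoli cell markers, Cst9 and Cst12 fell, with Cst9 at 7.66 against 2.94. Sox9, Wt1, Amh, Rhox5 and Fshr were not called. They read 1.85 to 4.25 on C57BL/6 and averaged 1.87 to 4.45 in the line, with differences from -0.20 (Rhox5) to 0.20 (Sox9). Of 4 Leydig cell markers Cyp17a1 and Star fell. Cyp11a1 and Hsd3b1 were not called, at 3.20 and 1.94 on C57BL/6 and 3.21 and 1.93 as line means. Of 6 epididymal markers, 5 read under the lowest array median on both sides, with Lcn8 called higher. The remaining one, Adam7, read 8.33 against a line mean of 8.69 and was not called. No leukocyte marker of 5 and no stromal marker of 4 was called, at 2.96 to 4.88 and 4.65 to 6.28 on C57BL/6. The part of testicular cell RNA in the decreases was not tested.

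In the longer lists 7 of 42 meiosis genes (median -0.16), 6 of 29 Sertoli genes (-0.09) and 5 of 18 Leydig genes (-0.39) fell, and 0 rose. Of all tested, 2.85% fell. In the lists of leukocyte genes and of fibroblast, muscle and vessel genes, 26 each, 0 were called (medians 0.14 and 0.26). Syce3, of the synaptonemal complex, read 7.55 against 5.05 to 5.73 and fell 4.94-fold, while Syce2, of the same complex, was kept at 8.05 against 7.86 to 8.46. Defb19, a beta-defensin of the Sertoli list, read 9.18 on C57BL/6 and 2.84 to 2.95 on the line's arrays. Syce3 and Defb19 reached 7 on the C57BL/6 array alone. Clu and Ptgds, which Sertoli and Leydig cells share with the epididymis, were kept at 7.88 and 7.74 and at 9.20 and 9.23.

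As means over the line, epididymal messages read near or above C57BL/6, but the arrays of the line were split. The mean of the list was 4.71 on C57BL/6 and 5.00 to 5.23 on the TG3 arrays and nonTG3 replicate 1. On nonTG3 replicates 2 and 3 it was 4.62 and 4.51, below C57BL/6. Of 47 measured, 0 fell and 1 rose (Lcn8, 2.45 against 3.16, both below the lowest array median), and the 9 well measured all had higher means in the line (differences of 0.32 to 0.90). Defb2, a beta-defensin of the epididymis, read 8.99 on C57BL/6 and 8.68, 10.35 and 10.43 in the line (limma adjusted p = 0.731). Besides Defb19, 6 other beta-defensin genes were well measured, and all had higher means in the line without passing. In the whey acidic protein family of protease inhibitors, with 6 well measured genes, 1 was called lower and 4 were kept. Wfdc15a read 8.17 against 5.68 to 6.06 and fell 5.13-fold. Wfdc15b read 9.57 against 8.61, 10.37 and 10.75, and Wfdc10 read 10.46 against 9.85, 11.22 and 11.31. On both of these the nonTG3 replicates 2 and 3 lay below the C57BL/6 array and the other 4 arrays above it.

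Ribosomal protein messages gave few calls. Of 63 measured, 1 was called lower, where 2.85% of all tested were, and 0 rose. The called one was Rpl10l, a testis copy outside the well measured set, at 3.46 against 2.01. The median was 0.03 over the 63, and between -0.12 and 0.11 under other settings. Of the 31 well measured, 25 lay within 0.5, a share near that of all probe sets read on both sides (81.5%). Rpl21 read 10.21 against 10.05 to 10.33 (95% interval -0.32 to 0.31), and the brightest of 5 Rpl41 probe sets read 11.10 against 10.95 to 11.42 (-0.26 to 0.49). Rpl15, Rpl32, Rplp0, Rps4x, Rps24 and Rpl39l lay outside that range without being called. Rpl39l, a testis copy of Rpl39, read 8.43 against 5.74 to 6.75 (limma adjusted p = 0.0516). B2m, Grina, Tpt1, Git1, Spem1, Plb1 and Mms19 were also among the 20 kept probe sets with the highest C57BL/6 readings. Their differences were -0.33 to 0.37.

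Among noncoding RNAs, Rn7sk read 12.61 on C57BL/6 and 12.53 to 12.98 in the line, and Malat1, a nuclear long noncoding RNA, read 10.67 against 9.12, 10.70 and 11.06. The 6 small nucleolar and Cajal body RNAs that were well measured, of 83 tested, had a median difference of 0.64, with none called. Rnu3a among them entered through the line alone, which favours a higher reading in the line. Rnu3a and Snord17 also varied widely, with SDs of 1.13 and 1.66 over the 6 line arrays. Of 13 microRNA genes 10 matched a mature sequence of the RefSeq table, and Mir449b, Mir466h and Mir5099 are named only. Those below are the called one, the one lowest against C57BL/6, the matched one with the highest reading and the most variable one, with the seed (bases 2 to 8) in capitals. No seed was shared among them. The probe sets are named for genes, so a reading is not taken as the level of a mature strand.
mmu-miR-2137 (GRCm38.p6 chrX:72992113-72992133, plus strand): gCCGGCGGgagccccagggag
mmu-miR-680 (GRCm38.p6 chrX:144297790-144297810, plus strand): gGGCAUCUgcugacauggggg
mmu-miR-761 (GRCm38.p6 chr4:109017669-109017690, plus strand): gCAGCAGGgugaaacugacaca
mmu-miR-5125 (GRCm38.p6 chr17:23823339-23823358, plus strand): uCUGCCUGggauuuccuugu

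Mir2137 was the 1 well measured probe set called higher, and it entered the set through the line alone, the side on which it is high. It read 6.43 on C57BL/6 and 7.03, 7.22 and 7.40 as the lowest, median and highest of the line, all above the C57BL/6 array. The difference of 0.80 passed narrowly (limma adjusted p = 0.0490), and the call was lost in each of the 6 fits that left out 1 array (adjusted p up to 0.115). Mir680-2, which encodes miR-680, read 8.84 and averaged 7.90 ± 0.29 (SD, n = 6), which did not pass (limma adjusted p = 0.273). Mir761 read 9.85 and averaged 9.98 ± 0.51 (SD, n = 6). Sfi1 and Rnu3a were the pair higher by 1 log2 unit or more, at 1.03 and 1.01, and neither was called. Both also entered through the line alone.

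The same set was compared with C57BL/6 for carriers and littermates apart. These comparisons share the C57BL/6 array, so they are set side by side. In TG3 152 well measured probe sets were called lower (2.41% of all tested were) and 0 higher (0.119% of all). In nonTG3 155 were lower (2.43% of all) and 0 higher (0.0936% of all). For Tnp1 the TG3 and nonTG3 means were 9.35 ± 0.12 and 9.67 ± 0.16 (SD, n = 3), and for Prm1 they were 10.16 ± 0.07 and 10.23 ± 0.11 (SD, n = 3). Against each other, TG3 and nonTG3 had 0 called, well measured or over all tested (0%). Limma's smallest adjusted p was 0.923, and 29 of the 1182 had an unadjusted p under 0.05. The largest difference between their means was 1.48 log2 units.

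The well measured RNAs that differed most among the line's own arrays included mitochondrial RNAs and many others, of which some are given here. ND3, a subunit of complex I written in the mitochondrion, read 11.91 on C57BL/6, 8.51, 12.17 and 12.15 on TG3 and 12.12, 9.32 and 8.12 on nonTG3. ND2 and ND4L followed the same arrays, with SDs of 1.87 and 1.82 over the 6 arrays. Wfdc8 and Mir5125 were also low on TG3 replicate 1 and nonTG3 replicate 3, at 5.36 and 4.84 and at 6.17 and 6.46, against 7.83 or more on the other arrays of the line. Rny3, a Y RNA, was high on those arrays, at 10.93 and 11.26, and at 10.49 on nonTG3 replicate 1, against 8.06 to 8.88 on the other arrays. Hspa8, the constitutive HSP70, was low, on the brightest of its probe sets, on nonTG3 replicates 2 and 3, at 6.69 and 6.97, against 8.05 or more. Tnp1 and Smcp had SDs of 0.21 and 0.20 across the same arrays.

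**Figure D5:**
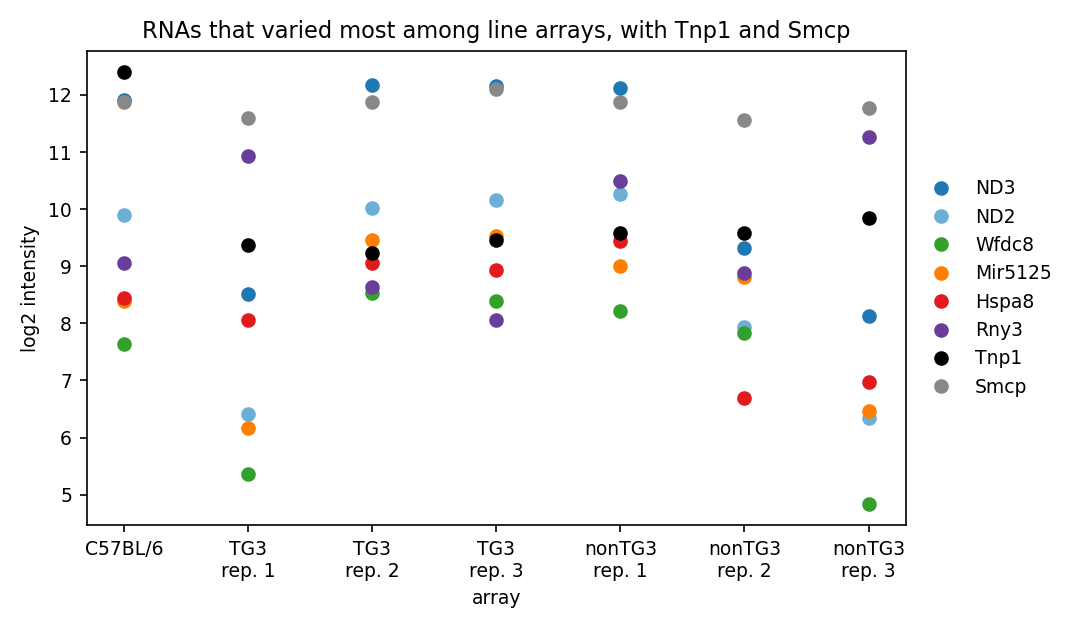
Log2 intensity (y axis) on each of the 7 arrays (x axis) for 6 RNAs that varied widely among the arrays of the line, with Tnp1 and Smcp beside them. ND3, ND2, Wfdc8 and Mir5125 are low on TG3 replicate 1 and nonTG3 replicate 3, and Tnp1 stays between 9.23 and 9.85 on all arrays of the line.

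The level of 7 cuts through a continuous range. Just inside it on the C57BL/6 side were Hint1, Trim36 and Dnali1, with differences of -0.49, -0.97 and -0.80, and just outside were Cct2, Fam229a and Nop10, with -0.77, -0.14 and -0.94. On the side of the line mean, Rcc1, Ttbk1 and Rpl3 were just inside (0.39, 0.26 and 0.20) and Ubl4b, Hdac4 and Oplah just outside (0.11, 0.50 and 0.27). Of 32 genes with several well measured probe sets 1 had a split call, and none had probe sets 1 log2 unit or more apart. Among the 169 called lower, 34 took no more than 4 different readings over the 6 arrays. Repeated readings lower the spread on which their p-values rest.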

How the data were processed

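Sperm RNA was read on 7 arrays, with 3 each for TG3 and nonTG3 and 1 for C57BL/6. The deposited values are log2 intensities per probe set, and R 3.1.0, oligo, RMA and limma are named in the submitters' processing notes. No source used here gives scan batches. The platform annotation gave the gene names: 23493 probe sets had 1 symbol, 1801 several and 8310 none. Means for C57BL/6, TG3 and nonTG3 were fitted to the 23493 with limma 3.58.1 in R 4.3.3 (lmFit, eBayes) and contrasted, and p-values were adjusted over all 23493 by the Benjamini-Hochberg method, with a threshold of 0.05. The fit had 4 residual degrees of freedom, and the C57BL/6 array adds nothing to the spread estimate. An exact test of 1 array against 6 cannot go below p = 0.143 (one-sided). Arrays have no read depth, so their number limits the precision.

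The named genes were the 20 largest called decreases with all line arrays under C57BL/6, all called increases, the 20 kept probe sets with the highest C57BL/6 readings, the 10 highest line means, the 3 probe sets on each side of both level limits, up to 4 called and 3 kept members of each list, and known partners (predicted names left out). Other genes were named after their values were seen. The members and lists were chosen with earlier results of these data known. No source used here states that replicate numbers pair the samples, so the reported fit did not pair them. Alternatives were other normalizations (quantile, median centring, cyclic loess), moderation settings, array weights, filters, levels, thresholds and ranges, and leaving out each line array. The fit without both arrays low in mitochondrial RNA and the looser promoter element were chosen after seeing the data. The fit was tested on simulated data. Promoters and microRNAs are from RefSeq (GRCm38.p6), and figures were drawn with matplotlib 3.10.9.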

Additional observations from a re-analysis of the deposited data

How the results depend on the processing

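None of the 48 called named genes changed sign under any alternative run, while 30 of 70 uncalled named probe sets did under at least 1. The reported calls among well measured probe sets were 170 for the line, 152 for TG3 and 155 for nonTG3. At an adjusted p under 0.01 they were 80, 64 and 58. With a level of 6 they were 321, 284 and 290, and with a level of 8 they were 61, 55 and 57. With the level set on the mean over all 7 arrays they were 25, 19 and 20, and on the line alone 18, 13 and 14. Decreases of 1 log2 unit or more, 237 as reported, numbered 462 and 93 at levels 6 and 8, and 44 and 33 on those means. Kept probe sets, 742 as reported, numbered 1722 and 359 at levels 6 and 8. Fitting only the arrays of the groups compared left 0 calls for TG3 by limma (277 at an unadjusted p under 0.05) and 20 for nonTG3. Leaving out each replicate in turn gave 105 to 129 calls for the line, 89 to 102 for TG3 and 70 to 115 for nonTG3, the fewest for nonTG3 without its replicate 2. Without both arrays low in mitochondrial RNA, chosen after seeing the data, limma called 0 for the line, 0 for TG3 and 0 for nonTG3, with 303, 293 and 305 at an unadjusted p under 0.05 and 2 residual degrees of freedom. The causes were not tested beyond these losses of arrays.

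With the replicate number as a block, limma called 0 for the line, 0 for TG3 and 0 for nonTG3, with 259, 250 and 264 at an unadjusted p under 0.05 and smallest adjusted p of 0.0639, 0.0800 and 0.0833. Samples with the same number had correlations of -0.45, 0.02 and -0.40 in their deviations from the group means. With so few arrays these values cannot show whether such samples were handled together. All 48 called named genes lost the call under the block and without both arrays low in mitochondrial RNA. Quantile normalization gave 151 calls for the line and cyclic loess 218, which held 136 and 164 of the 169 reported decreases. Of the uncalled named probe sets, 18 moved by more than the replicate SD under cyclic loess and 6 under quantile normalization.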

Other observations

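Probe sets without exactly 1 gene symbol were not part of the comparison. Among 1801 with several symbols, 264 were well measured by the same rule, of which 118 were lower in the line by 1 log2 unit or more, 1 was higher and 109 lay within 0.5. Among 8310 with no symbol, 260 were well measured, of which 46 were lower by that much, 0 were higher and 183 lay within 0.5. The lowest differences were -3.31 and -3.66 log2 units. Several-symbol probe sets can mix near-identical genes, so none is named.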
